A study of Mus musculus with 6 samples.

Results

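The genes described here are 7 genes of the G1 phase of the cell cycle, among 27998 genes counted in single cells of mouse Müller glia cultures. They were chosen by symbol, with earlier results of these data known, and each is described whatever its values. They are the D cyclins Ccnd1, Ccnd2 and Ccnd3, the kinases Cdk4 and Cdk6, and the inhibitors Cdkn1b (p27) and Cdkn1c (p57). All 7 were found in each of the 6 libraries.

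D cyclins are made in response to growth signals such as epidermal growth factor, which was in the culture medium. They bind Cdk4 or Cdk6, and the active kinases phosphorylate the retinoblastoma protein, which frees E2F factors to start DNA synthesis. The proteins p27 and p57 bind cyclin and kinase complexes and hold cells out of the cycle. Müller glia, the main glia of the retina, stop dividing as the retina matures, and p27 is a known marker of that resting state in the mouse.

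Retinal cultures were grown in neurobasal medium with serum, N2, L-glutamine and epidermal growth factor, and were transfected with Lipofectamine, per the labels' protocols. Each RNA was at 500 nM. The control library received a control mimic and a control antagomiR. The others received an antagomiR that blocks let-7 miRNAs, a miR-25 mimic, a miR-124 mimic, the let-7 antagomiR with the miR-25 mimic (double combination), or those with the miR-124 mimic as well (triple combination). The labels name no strain, age, number of animals or time after transfection. There was 1 library per treatment, so no difference below has a replicate check, no test of treatments was made, and intervals are exact 95% intervals that cover counting error only.

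The miRNA seeds (bases 2 to 8, in capitals) are shown first because they set which sites can be sought in the members' transcripts. Mature sequences are from RefSeq (GRCm38.p6). The arm of the miR-25 mimic is not given in the labels and the 3p arm was assumed. Members of the let-7 family such as let-7a and let-7i share their seed and differ further along.
let-7a-5p: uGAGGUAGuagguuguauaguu
let-7i-5p: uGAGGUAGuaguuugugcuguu
miR-25-3p: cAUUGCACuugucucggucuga

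Sites were sought in the longest annotated 3′ UTR of each member (GENCODE vM21, GRCm38) as CTACCTC or TACCTCA for let-7 and as GTGCAAT or TGCAATA for miR-25, on the transcript strand. These are the complement of bases 2 to 8, or of bases 2 to 7 followed by A. Where both overlapped they were counted as 1 longer match, of which the members had 0. The windows below hold each match, in capitals, with the bases beside it.
Ccnd1, let-7, chr7:144930598-144930604, minus strand: ttcacaaTACCTCAtgtat
Ccnd2, let-7, chr6:127128300-127128306, minus strand: tattcttTACCTCAggttt
Ccnd2, let-7, chr6:127128222-127128228, minus strand: ttcctaaTACCTCAcagct
Ccnd2, let-7, chr6:127125586-127125592, minus strand: tgccatgTACCTCAgatct
Cdk4, let-7, chr10:127067673-127067679, plus strand: ccgaggcCTACCTCccctc
Cdk6, let-7, chr5:3521639-3521645, plus strand: gtgagtgTACCTCAgatag
Cdk6, miR-25, chr5:3521615-3521621, plus strand: tattactTGCAATAcattt
Cdk6, miR-25, chr5:3528180-3528186, plus strand: tatgaaaTGCAATAacata
Cdkn1c, miR-25, chr7:143458863-143458869, minus strand: gaaaactGTGCAATgtatt

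Ccnd1, Ccnd2, Cdk4 and Cdk6 thus held a let-7 match, and Cdk6 and Cdkn1c a miR-25 match. The letters were not in the annotated 3′ UTRs of Ccnd3 and Cdkn1b. Over 20996 genes, 14.8% had a let-7 match and 12.7% a miR-25 match. Long UTRs hold more: the 3′ UTR of Ccnd2 is 5173 bases, and 42.8% of UTRs within 25% of that length had a let-7 match, with a mean of 0.608 against the 3 in Ccnd2. That of Cdk6 is 10217 bases, and 67.7% of UTRs of like length had a let-7 match and 54.5% a miR-25 match. A match is a description of the sequence and not evidence of binding. Sites of miR-124 were not sought, because its mature sequence was not in the miRNA reference used.

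After filtering, 2722 to 5156 cells per library remained, with medians of 3519.0 to 5868.0 UMIs (unique RNA molecules counted) per cell. The deposited matrix of the double combination was incomplete, and 3014 of its 5141 barcodes were used. Cells were clustered without the 7 members. Müller-like cells were 29.9% of control cells and 35.4% to 60.2% of cells in the other libraries; fibroblast-like cells were 48.1% of control cells and 21.6% to 34.5% elsewhere, so the cultures were mixed. Pairs of libraries shared 9 to 30 cell barcodes. In Müller-like cells the 22 Müller glia markers summed to 12477.7 CPM (a gene's UMIs scaled to a common total per sum of cells) in the double combination and up to 23209.1 CPM in the library with the triple label, with no marker at 0. The 12 fibroblast markers summed to 227.6 to 376.6 CPM there, against 3361.3 to 5018.0 CPM in fibroblast-like cells.

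The let-7 and miR-25 labels, but not the miR-124 label, were checked in Müller-like cells. Genes with a site to bases 2 to 8 (CTACCTC or GTGCAAT) were set against genes without it. Trends on UTR length, level and GC content were removed. The value given is the mean log2 ratio to control of the site genes minus that of the others. This is a description across genes with no test. For let-7 sites (703 of 6980 genes) it was 0.075 with let-7 antagomiR and 0.086 in the double combination, but also 0.089 in the library labelled miR-124, whose label names no let-7 antagomiR. It was 0.019 in the library labelled as triple. For miR-25 sites (638 genes) it was -0.152 with miR-25 mimic and -0.16 when that was combined with let-7 antagomiR. The library labelled miR-124 and the library labelled as triple each gave 0.014. Neither of these 2 libraries thus had both shifts seen in the double combination, under its own label or if the labels were exchanged. Whether they were exchanged or mislabelled in part was not tested, and their values below stand for the label and not for a treatment that was checked. They are called the miR-124-labelled and the triple-labelled library throughout.

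Ccnd1, which encodes cyclin D1, was measured at 1460.1 CPM in control Müller-like cells, 1083.6 with miR-25 mimic, 696.8 in the double combination, 676.6 with let-7 antagomiR, 539.5 in the miR-124-labelled library and 357.2 in the triple-labelled library. Control was highest, and every neighbouring pair in that order had separate counting intervals except the double combination and let-7 antagomiR. With let-7 antagomiR the level was 0.463 times control (0.448 to 0.479), from 6343 and 8030 UMIs. The double combination had 0.477 times the level of control (0.459 to 0.496) and 0.643 times that of miR-25 mimic (0.62 to 0.666), but 1.03 times that of let-7 antagomiR alone (0.99 to 1.07). Ccnd1 was thus lower with let-7 antagomiR than without it both in the absence and in the presence of miR-25 mimic, in pairs that share no library.

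Ccnd2, which encodes cyclin D2, was measured at 1490.5 CPM in control Müller-like cells, 1162.2 in the double combination, 1128.4 with miR-25 mimic, 943.2 with let-7 antagomiR, 538.9 in the miR-124-labelled library and 399.0 in the triple-labelled library. Only the double combination and miR-25 mimic had overlapping intervals as neighbours in this order. With let-7 antagomiR the level was 0.633 times control (0.614 to 0.652). Unlike for Ccnd1, the double combination was not below miR-25 mimic, at 1.03 times its level (1.0 to 1.06). The triple-labelled library had 0.343 times the Ccnd2 level of the double combination (0.33 to 0.358).

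Ccnd3, the remaining D cyclin, was measured at 200.8 CPM with let-7 antagomiR, 190.1 in the double combination, 179.5 with miR-25 mimic, 167.7 in control, 158.4 in the miR-124-labelled library and 152.4 in the triple-labelled library. All neighbours overlapped, and the highest library was 1.32 times the lowest, against 4.09 times for Ccnd1 and 3.74 times for Ccnd2. Against control the ratio was 1.2 with let-7 antagomiR (1.11 to 1.3) and 1.13 in the double combination (1.04 to 1.24). It was 0.909 in the triple-labelled library (0.836 to 0.989). The intervals held 1 with miR-25 mimic (0.991 to 1.16) and in the miR-124-labelled library (0.85 to 1.05). With a stricter cell filter (1000 genes or more, no more than 5% of UMIs mitochondrial) Ccnd3 with let-7 antagomiR came past 1.5-fold above control, at 0.68 on the log2 scale where it was 0.25.

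**Figure D1:**
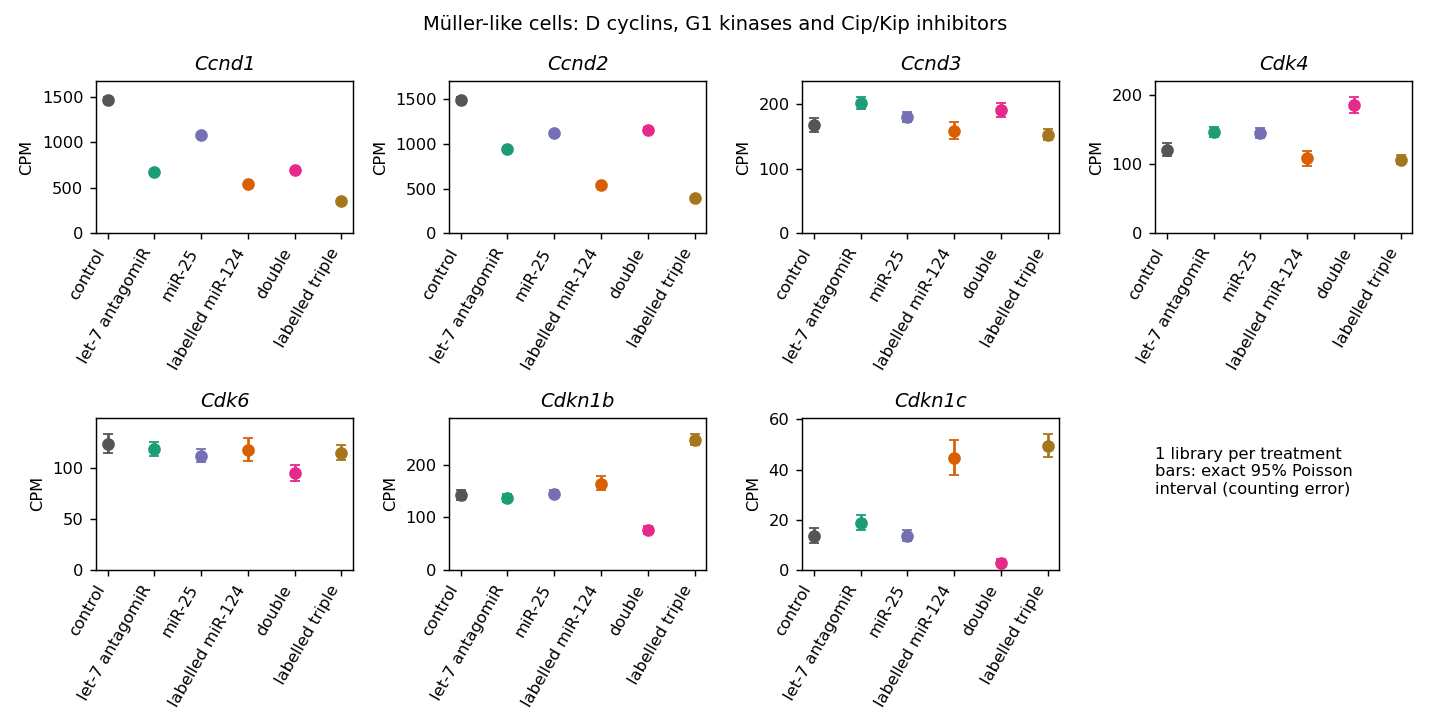
Level of each of the 7 genes in Müller-like cells (CPM, linear axes from 0), 1 point per library, with exact 95% Poisson intervals. Ccnd1 and Ccnd2 are highest in control and lowest in the triple-labelled library, whereas Cdkn1b and Cdkn1c are highest in the triple-labelled library and lowest in the double combination.

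Of the kinases, Cdk4 was measured at 185.3 CPM in the double combination, 146.5 with let-7 antagomiR, 145.0 for miR-25 mimic, 120.9 in control, 108.5 in the miR-124-labelled library and 106.7 in the triple-labelled library. The double combination stood apart from the rest, at 1.53 times control (1.39 to 1.69). This log2 ratio of 0.6 lies just past 1.5-fold, and it was 0.22 with the stricter cell filter and 0.16 over all kept cells, so the call was lost in both. The lower Cdk4 in the triple-labelled library than in the double combination went likewise from -0.77 to -0.42 and -0.18. Each single RNA was nearer to control, with 1.21 times for let-7 antagomiR (1.1 to 1.33) and 1.2 times for miR-25 mimic (1.1 to 1.31). Cdk6, the other kinase partner of the D cyclins, ranged from 94.51 CPM in the double combination to 123.1 CPM in control, and the 5 libraries above the double combination overlapped as neighbours. The double combination had 0.768 times the Cdk6 level of control (0.684 to 0.861). With the stricter filter Cdk6 in the triple-labelled library came past 1.5-fold below control, at -0.65 on the log2 scale where it was -0.1. Before that filter, the highest Cdk4 level and the lowest Cdk6 level occurred in the same library. With it, neither place was kept. The log2 ratio of Cdk4 between the double combination and let-7 antagomiR was then -0.01. That of Cdk6 between the triple-labelled library and the double combination was -0.17.

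Cdkn1b, which encodes p27, was measured at 247.9 CPM in the triple-labelled library, 164.1 in the miR-124-labelled library, 144.5 with miR-25 mimic, 142.2 in control, 137.1 with let-7 antagomiR and 76.35 in the double combination. Neither let-7 antagomiR nor miR-25 mimic alone stood apart from control, with ratios of 0.964 (0.881 to 1.05) and 1.02 (0.933 to 1.11). With both RNAs, in the double combination, it was 0.537 times control (0.476 to 0.605), 0.528 times miR-25 mimic and 0.557 times let-7 antagomiR. The triple-labelled library had 1.74 times the control level (1.61 to 1.89) and 3.25 times that of the double combination (2.93 to 3.61).

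Cdkn1c, which encodes p57, was measured at 49.39 CPM in the triple-labelled library, 44.43 in the miR-124-labelled library, 18.77 with let-7 antagomiR, 13.6 for miR-25 mimic, 13.46 in control and 2.821 in the double combination. The last value rests on 16 UMIs in 1389 cells, and the control value on 74 UMIs. The 2 highest libraries overlapped each other and stood apart from the rest, and the double combination stood apart at the low end. Against control, the ratio was 3.3 in the miR-124-labelled library (2.49 to 4.41), 3.67 in the triple-labelled library (2.87 to 4.76) and 0.21 in the double combination (0.114 to 0.363). After thinning each cell to 2000 UMIs, 7.96% of Müller-like cells in the triple-labelled library had a Cdkn1c UMI and 2.37% of those in control. Before thinning the shares were 12.2% and 4.22%. Microglia-like cells had median depths of 6995.0 and 6362.0 UMIs in these libraries, against 3694.0 and 3909.5 in Müller-like cells. In microglia-like cells the thinned shares were 1.03% and 0.0% (0 of 117 cells, with an exact upper limit of 3.1%). The control share in Müller-like cells is under that limit and so is not shown to be above background. As a level, control Müller-like cells (10.57 to 16.89 CPM) were above the 4.777 CPM that 0 UMIs in microglia-like cells allow, whereas the double combination was not, where 0 UMIs allow 12.52 CPM.

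A call was set at 1.5-fold on the log2 scale of CPM + 5, over the 7102 genes that reached 20 CPM in some library. All 7 members were among them, Cdkn1c only through the 2 libraries in which it was highest, those labelled miR-124 and triple. Its calls as higher in those libraries are therefore favoured by this filter. In the other libraries Cdkn1c was under 20 CPM. Its calls as lower in the double combination against control, miR-25 mimic and let-7 antagomiR thus compare levels under that limit. With let-7 antagomiR against control, 2 members were past 1.5-fold (Ccnd1 and Ccnd2, both lower), against 1.68% of all genes. With miR-25 mimic against control 0 members were past it, against 2.42% of all genes. In the miR-124-labelled library against control 3 members were past it (Ccnd1 and Ccnd2 lower, Cdkn1c higher), against 14.5% of all genes.

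In the double combination against control 4 members were past 1.5-fold, against 8.17% of all genes: Cdk4 was higher, and Ccnd1, Cdkn1b and Cdkn1c were lower. In the triple-labelled library against control 4 members were past it, against 19.5% of all genes: Ccnd1 and Ccnd2 were lower, and Cdkn1b and Cdkn1c higher. Between the triple-labelled library and the double combination 5 members were past it, against 31.1% of all genes. Between the double combination and miR-25 mimic there were 3 (Ccnd1, Cdkn1b and Cdkn1c, all lower), against 6.0% of all genes, and between the double combination and let-7 antagomiR 2 (Cdkn1b and Cdkn1c, both lower), against 6.74%. Several of these contrasts share a library, so their counts are not independent. The members were chosen with earlier results of these data known, so the counts are descriptions only. The median log2 ratio of the 7 members lay between -0.36 and 0.01 over the 8 contrasts, where the median of all genes lay between -0.04 and 0.072.

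Müller-like cells fell into 3 clusters, and these were not spread evenly over the libraries. The cluster led by Rlbp1, the gene of a retinoid-binding protein typical of mature Müller glia, held 709 of 1272 Müller-like cells in the miR-124-labelled library and 1760 of 2290 in the triple-labelled library, and under 50 in each other library. The cluster led by Lcn2 held 437 to 2232 cells per library, and that led by Npvf held 92 to 849. The Npvf-led cluster held 765 of 1389 Müller-like cells in the double combination and 421 of 1350 in control.

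In the Rlbp1-led cluster Ccnd1 was at 212.5 CPM in the miR-124-labelled library and 177.5 CPM in the triple-labelled library, below its level in the Lcn2-led cluster of every library (599.8 to 1208.6 CPM). Ccnd2 was at 292.2 and 227.3 CPM there, against 743.3 to 1337.0 CPM in the Lcn2-led cluster. Cdkn1c was at 71.67 and 60.95 CPM in the Rlbp1-led cluster, against 6.419 to 28.34 CPM in the Lcn2-led cluster and 3.21 CPM or less in the Npvf-led cluster. Cdkn1b was at 186.1 and 268.1 CPM in the Rlbp1-led cluster. Markers of other cell types moved with the same libraries: in Müller-like cells the 9 astrocyte markers summed to 1824.8 CPM in the triple-labelled library, 1085.7 in the miR-124-labelled library and 447.2 to 591.8 elsewhere, and the 11 pericyte markers to 1188.5, 2033.0 and 3604.2 to 6165.1 CPM. The 8 endothelial markers, of which 3 or 4 were at 0, summed to 1048.7, 797.3 and 310.7 to 473.6 CPM, and the 12 microglia markers to 33.33 to 53.97 CPM over the 6 libraries. None of the astrocyte markers and at most 1 of the pericyte markers was at 0, and the part of these markers in the member values was not tested.

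Without the Rlbp1-led cluster, an alternative added after the data were seen, the log2 ratio of Ccnd1 to control moved from -1.43 to -0.65 in the miR-124-labelled library and from -2.02 to -0.81 in the triple-labelled library. That of Ccnd2 moved from -1.46 to -0.83 and from -1.89 to -0.8. That of Cdkn1c in the miR-124-labelled library moved from 1.42 to -0.17, so its call was lost with its direction. That of Cdkn1b in the triple-labelled library moved from 0.78 to 0.43 and that of Cdkn1c from 1.56 to 0.35, so neither stayed past 1.5-fold. Of the 23 calls over the 8 contrasts, 17 remained in the same direction without this cluster.

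**Figure D2:**
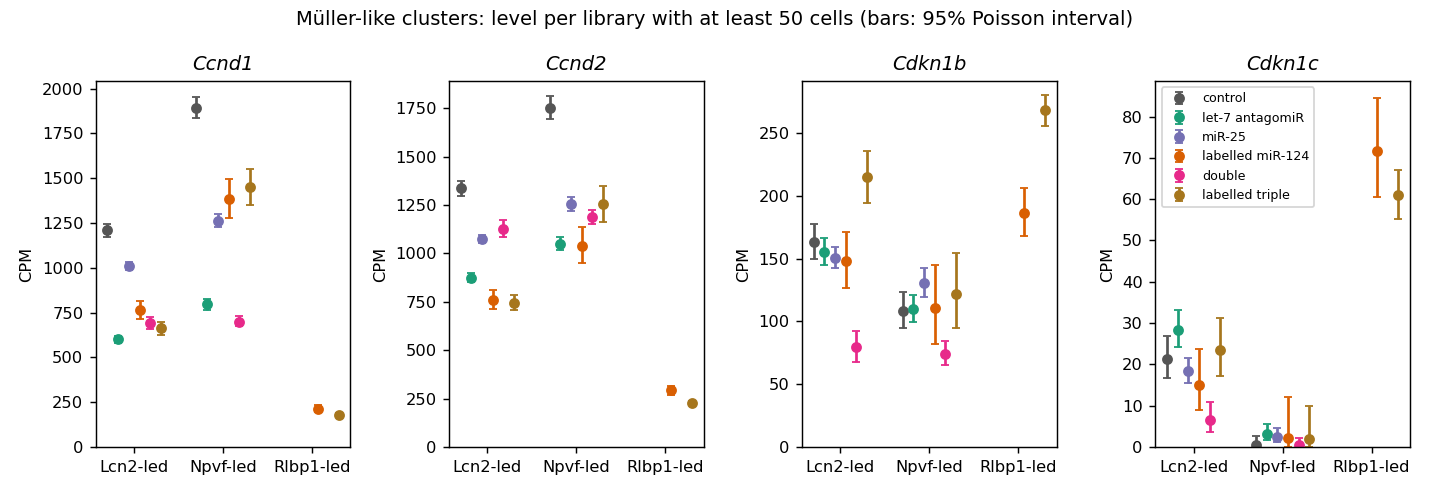
Levels of Ccnd1, Ccnd2, Cdkn1b and Cdkn1c (CPM) in the 3 Müller-like clusters, 1 point for each library with at least 50 cells in the cluster, with exact 95% Poisson intervals. Only the miR-124-labelled and triple-labelled libraries have points in the Rlbp1-led cluster, where Ccnd1 and Ccnd2 are low and Cdkn1c is high, and Cdkn1b in the double combination is lowest in the Lcn2-led and Npvf-led clusters.

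Within the Lcn2-led cluster, Ccnd1 was at 599.8 CPM with let-7 antagomiR against 1208.6 in control, and within the Npvf-led cluster at 795.3 against 1892.9. The lower Ccnd1 with let-7 antagomiR was therefore present in each cluster, with log2 ratios of -1.0 and -1.25. For Ccnd2 these were -0.61 and -0.74. Cdkn1b in the double combination was at 79.32 CPM against 163.2 in control in the Lcn2-led cluster, and at 74.38 against 108.4 in the Npvf-led cluster. The second difference, of -0.51 on the log2 scale, is under 1.5-fold.

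The triple-labelled library and the double combination compared differently in the 2 shared clusters. Ccnd1 was at 661.4 against 691.8 CPM in the Lcn2-led cluster and at 1449.0 against 700.1 CPM in the Npvf-led cluster, which had 92 and 765 cells in these libraries. The log2 ratio was thus -0.06 in one and 1.04 in the other, where it was -0.95 over all Müller-like cells. Cdkn1b was higher in the triple-labelled library in both, with 214.7 against 79.32 CPM and 122.1 against 74.38 CPM. Cdk4 was lower in both, with 128.7 against 177.4 CPM and 118.5 against 189.3 CPM.

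**Figure D3:**
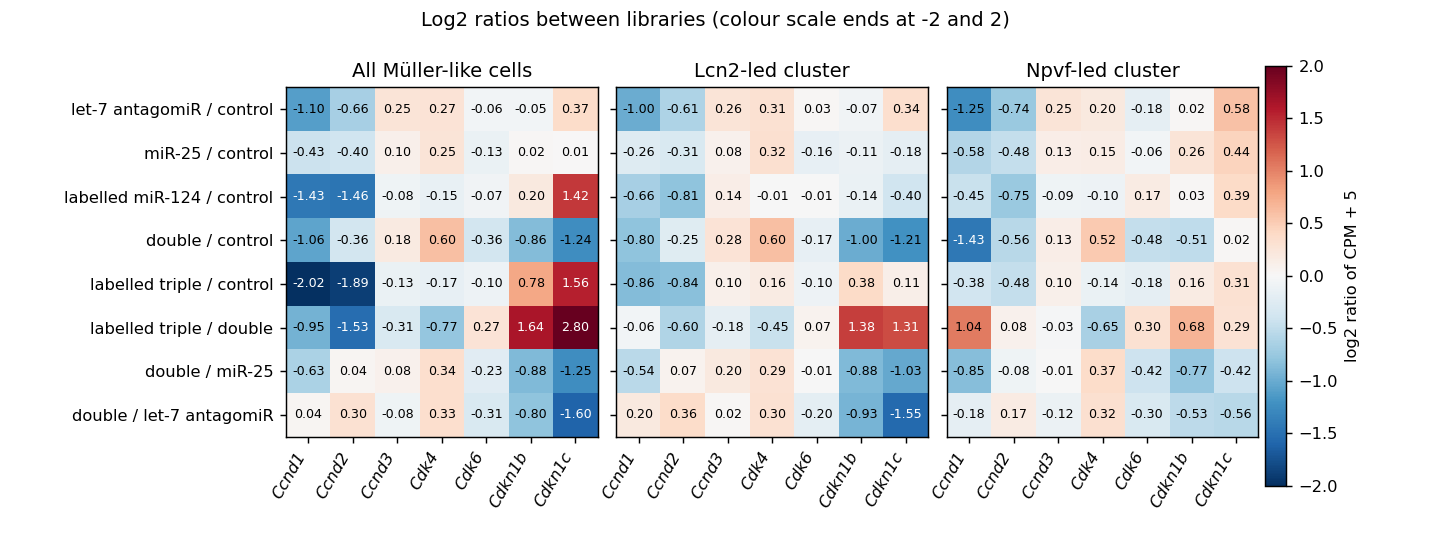
Log2 ratios (CPM + 5) of the 7 genes, in columns, for 8 contrasts between libraries, in rows, over all Müller-like cells and in the Lcn2-led and Npvf-led clusters alone. Ccnd1 is lower with let-7 antagomiR than in control in all 3 panels (-1.1, -1.0 and -1.25), while its ratio between the triple-labelled library and the double combination goes from -0.95 to -0.06 and 1.04.

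The same genes were read in the other cell classes of the cultures, of which 4 had at least 50 cells in every library. Cdkn1b was lowest in the double combination in all 5 classes, Müller-like included, and 1.85% of 6207 genes were lowest in that library in all 5. In fibroblast-like cells it was at 36.11 CPM in the double combination and at 64.07 to 78.07 CPM in the other libraries, 0.5 times control (0.404 to 0.615). In astrocyte-like cells it was at 60.63 CPM against 72.53 to 145.0, and in pericyte-like cells at 28.24 CPM against 40.46 to 65.81. In microglia-like cells the double combination had 5 UMIs (16.97 CPM) and control 14 (18.13 CPM), too few to tell apart.

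Cdkn1b was higher in the triple-labelled library than in control in all 5 classes, as were 10.9% of genes, and than in the double combination in all 5, as were 13.4%. Against control its counting intervals overlapped in fibroblast-like (78.07 and 72.16 CPM), pericyte-like (62.67 and 45.36 CPM) and microglia-like cells (30.92 and 18.13 CPM). Against the double combination they overlapped in microglia-like cells (30.92 and 16.97 CPM). Cdkn1c had the same directions. In fibroblast-like cells it was at 28.51 CPM in the triple-labelled library, 14.65 in control and 6.25 in the double combination. In astrocyte-like, pericyte-like and microglia-like cells it had 0 to 15 UMIs per library, and its mean level was under the 20 CPM that a gene needed for those percentages.

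Ccnd1 and Ccnd2 were lower with let-7 antagomiR than in control in all 5 classes, as were 10.2% of genes. In pericyte-like cells Ccnd1 was at 36.22 CPM (64 UMIs) with let-7 antagomiR and 153.1 CPM (324 UMIs) in control, 0.237 times control (0.178 to 0.31). In fibroblast-like cells the difference was smaller, at 120.6 against 149.7 CPM, and Ccnd2 was level there, at 957.8 against 958.0 CPM. The double combination, which also had let-7 antagomiR, did not share this order: Ccnd1 and Ccnd2 were each lower than in control in 3 of 5 classes and higher in 2. In astrocyte-like cells Ccnd1 was at 267.5 CPM in the double combination and 204.4 CPM in control. Both genes were higher in the double combination than with let-7 antagomiR in all 5 classes, as were 9.39% of genes. In control, Müller-like cells had far more Ccnd1 (1460.1 CPM) than the other classes with at least 50 cells in every library (149.7 to 216.2 CPM). Control pigment cell-like cells were at 248.8 CPM, and the clusters left unnamed at 744.7 CPM. The part of free Müller RNA in the lower values was not tested. Cdk4 was higher than in control in all 5 classes with let-7 antagomiR, as were 11.2% of genes, and in the double combination, as were 12.6%. Cdk4 was also higher than in control in all 5 classes with miR-25 mimic, as were 933 of 6207 genes. Outside Müller-like cells its counting intervals with miR-25 mimic overlapped control in each class, as at 143.0 against 119.2 CPM in astrocyte-like cells. With let-7 antagomiR they overlapped control there in all but fibroblast-like cells. Over all kept cells Cdk4 was at 170.8 CPM with miR-25 mimic, below control at 178.6 CPM. In the double combination it was at 195.0 against 119.2 CPM in astrocyte-like cells and at 207.0 against 134.7 CPM in microglia-like cells, but at 231.6 against 224.1 CPM in fibroblast-like cells.

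**Figure D4:**
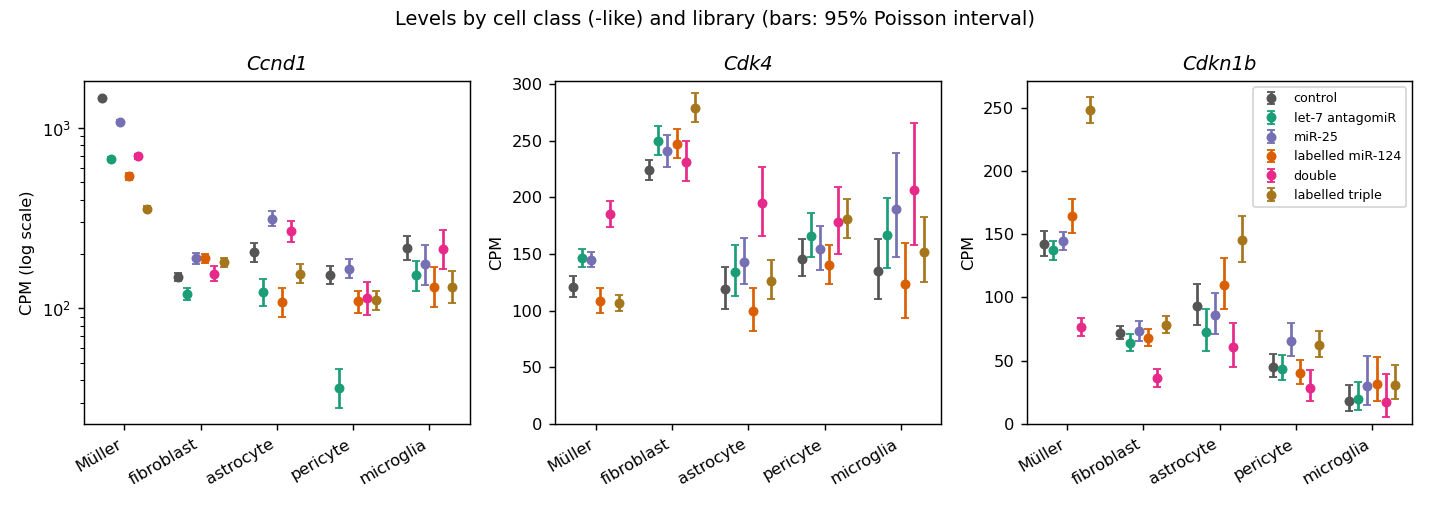
Levels of Ccnd1 (log axis), Cdk4 and Cdkn1b (linear axes from 0) in CPM in the 5 cell classes with at least 50 cells in every library, 1 point per library, with exact 95% Poisson intervals. Cdkn1b in the double combination is the lowest point in each class, and Ccnd1 in control is far higher in Müller-like cells (1460.1 CPM) than in the others (149.7 to 216.2 CPM).

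Over all kept cells, where the classes are mixed, 15 of the 23 calls remained in the same direction and the other 8 were no longer past 1.5-fold. The calls lost included both with let-7 antagomiR, where the log2 ratio of Ccnd2 to control was -0.28. They also included 3 of the double combination against control, at -0.17 for Ccnd1, 0.16 for Cdk4 and -0.5 for Cdkn1b. Other ratios were as large or larger than in Müller-like cells, such as that of Cdkn1b between the double combination and miR-25 mimic, at -0.92 against -0.88. Ccnd1 with let-7 antagomiR was at 387.5 CPM against 507.4 in control, a log2 ratio of -0.38, and with miR-25 mimic it was at 727.7 CPM, above control where it was below control in Müller-like cells. The share of Müller-like cells was 60.2% with miR-25 mimic and 29.9% in control. Fewer cells of a type and less RNA per cell cannot be told apart in such sums.

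The wider G1 list held 53 genes, of which 20 reached 20 CPM in Müller-like cells. The E and A cyclins, Cdk2, Cdk1 and Myc were under that level. With let-7 antagomiR against control 0 of 20 were past 1.5-fold, and with miR-25 mimic 1 was, Hmga2, a chromatin protein gene and known let-7 target, at 14.18 against 29.28 CPM. In the double combination 1 was, Rbl2, a relative of the retinoblastoma gene, at 15.34 against 28.18 CPM. These 2 genes were named after their values were seen. Hmga2 was at 28.05 CPM with let-7 antagomiR, a log2 ratio of -0.05 to control. In the double combination it was at 38.26 CPM, a log2 ratio of 0.34 to control and of 1.17 to miR-25 mimic. The miR-124-labelled library had 2 higher and 2 lower of 20, where 14.5% of all genes were past 1.5-fold, and the triple-labelled library 4 higher and 2 lower, where 19.5% were. The median log2 ratio of the 20 genes to control lay between 0.02 and 0.13 in the 5 contrasts with control, and that of all genes between -0.02 and 0.05.

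By the rule for pathway genes, 4 were past 1.5-fold in the same direction both in the miR-124-labelled library against control and in the triple-labelled library against the double combination. Tfdp2, a partner of the E2F factors, was at 75.78 against 33.46 CPM and at 87.95 against 26.8 CPM. Rb1, the retinoblastoma gene, was at 85.05 against 48.19 CPM and at 76.68 against 41.79 CPM. Cdkn1a, which encodes the inhibitor p21, was lower, at 548.7 against 907.9 CPM and at 437.0 against 1290.2 CPM. Hmga2 was also lower, at 14.17 against 29.28 CPM and at 6.715 against 38.26 CPM. The inhibitor genes Cdkn1a, Cdkn1b and Cdkn1c therefore did not move as 1 group. Cdkn1b and Cdkn1c were higher and Cdkn1a lower in the triple-labelled library than in the double combination. Of the 5 inhibitor genes on the wider list, Cdkn1a among them, 2 were higher and 2 lower in that contrast. The list's counts depend on the Rlbp1-led cluster, since the 22 calls over 8 contrasts were 11 without it, as did those of all genes, with 6404 and 3315. In the corresponding pairs for let-7 antagomiR and for miR-25 mimic 0 genes met the rule.

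Few Müller-like cells carried transcripts of S, G2 or M phase, but the naming of clusters bears on this. A cluster led by such genes was given no class, which left out the Cenpf-led one of 93 cells. Any Müller glia among those are missing from the shares and ratios of Müller-like cells below. Over all kept control cells, 41 had at least 5 such genes. Cells with at least 3 of 25 such genes were 1.19% of Müller-like cells in control and 0.262% to 0.676% in the other libraries, 5 to 21 cells in each library, and these shares were not corrected for depth. Of the 16 control cells 9 had exactly 3 such genes. With at least 5 genes the share was 0.296% in control (4 cells) and 0.0437% to 0.236% elsewhere. Among Müller-like cells, Ccnd1 was higher in those with at least 3 genes in 4 libraries, at 1.21 (1.03 to 1.42) times the other cells in control, 1.66 (1.33 to 2.05) with let-7 antagomiR, 1.56 (1.35 to 1.79) for miR-25 mimic and 1.96 (1.21 to 3.01) in the miR-124-labelled library. It was at 0.649 times (0.401 to 0.994) in the double combination and 0.669 times (0.289 to 1.32) in the triple-labelled library. These intervals take UMIs as independent, although few cells held them. With let-7 antagomiR 1 of the 10 cells held 43 of the 88 Ccnd1 UMIs. In the miR-124-labelled library 3 of the 5 cells held 19 of the 21. For Cdkn1b the ratio was 0.611 to 1.42, and every interval held 1. Over all kept cells the share with at least 3 genes was 1.38% to 2.26%. In the 5 libraries with at least 50 such cells, Cdk4 was higher in them than in the other cells, at 1.37 to 1.78 times, and Cdkn1b was lower, at 0.351 to 0.737 times. Ccnd1 was at 0.697 to 1.05 times. The Cdk4 ratio was 1.5 in control (264.2 against 175.7 CPM) and the Cdkn1b ratio was lowest in the triple-labelled library (55.81 against 158.8 CPM). The cells with such transcripts differ in class from the rest, so these are ratios between mixtures. Leaving them out of the Müller-like cells left all 23 calls in place.

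Over 34 sums of at least 50 cells, by library and class, the genes whose log2 level was most like each member's were taken from 9154 genes. For Cdkn1b they were Nfix (Pearson r 0.961) and Pik3r1 (0.938), for Ccnd2 Amotl1 and Amotl2 (0.952 each) and for Ccnd3 Col11a1 (0.936) and Trp53inp1 (0.933). For Cdk6 they were Lasp1 (0.909) and Sept9 (0.893), and for Ccnd1 Bambi and Gpx4 (0.876 each). For Cdk4 they were Aph1a (0.847) and Mtch2 (0.843), and for Cdkn1c Unc13c (0.81) and Tox (0.794). Among the members, Ccnd2 and Ccnd3 were most alike (0.837), followed by Ccnd3 and Cdkn1c (0.676) and by Cdkn1b and Cdkn1c (0.632), while Ccnd1 and Ccnd2 gave 0.241. The sums share libraries and classes, so these values are descriptions of cell class as much as of treatment.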

How the data were processed

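The 6 libraries, 1 for each treatment, are 10x Genomics V2 single-cell libraries, per the labels. Unnormalised UMI counts were deposited by the authors as 1 sparse matrix per library. The submitters' processing notes list Cell Ranger 2, Seurat 2 and mm10; how the authors filtered cells is not given in the sources used here. For the double combination the matrix was cut short, with 5094879 entries read where 8637523 are announced. Matrices held 11804176 to 23124374 UMIs.

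A cell was kept with 500 or more genes and no more than 10% of UMIs from mitochondrial genes, unless Scrublet (scanpy 1.11.5, per library) called it a doublet; that caller marked 0.0885% to 0.232% in 4 libraries and did not work there, and 1.34% and 2.27% in the double combination and let-7 antagomiR libraries. Cells were clustered together without the 7 members (2000 variable genes, 30 principal components, 15 neighbours, Leiden resolution 0.6, igraph 0.11.9) and named from marker lists. Müller-like clusters had 5 (Npvf-led), 14 (Lcn2-led) and 17 (Rlbp1-led) of 22 Müller markers at least 2-fold over the median cluster. A mixed cluster led by Col8a2 (404 cells) and a cycling one led by Cenpf (93 cells) stayed unnamed, the first by a rule set after the clusters were seen; they held 0.404% to 2.99% of each library.

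Counts were summed per library and class (3668549 to 12057726 UMIs for Müller-like cells) and given as CPM with exact Poisson intervals; ratios have exact conditional intervals, and log2 ratios are of CPM + 5, which understates changes of low genes. The counting was tested on simulated data. Named genes are the 7 members, pathway genes past 1.5-fold in the same direction in a pair of contrasts that share no library, at most 3 each way, and the 2 genes most correlated with each member, with mitochondrial, ribosomal protein, sex-linked and unnamed genes left out. The members and lists were chosen with earlier results of these data known. Alternatives were the cells summed, cell filter, scaling, pseudocount, doublets, clustering and level filter.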

Additional observations from a re-analysis of the deposited data

Results flagged for a closer look

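The summed level of Ccnd2 differed in direction between cell classes in the comparison of the triple-labelled library with the double combination. In microglia-like cells the log2 ratio was 0.85 (102.2 against 54.29 CPM, from 76 and 16 UMIs), and in Müller-like cells it was -1.53 (399.0 against 1162.2 CPM). There is 1 library per treatment, and the difference between classes was not tested. Within the Npvf-led Müller-like cluster alone the log2 ratio was 0.08.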

How the results depend on the processing

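No paired analysis was possible because each treatment has 1 library. The number of calls among the 56 member ratios was 23. All 23 kept their direction and call with a pseudocount of 1 CPM, with the highest 4% of doublet scores left out, at Leiden resolutions of 0.3 and 1.0, and without cells with S, G2 or M transcripts; 22 did with median-of-ratios scaling. Over all kept cells 15 did. In the Npvf-led cluster alone 8 did and 3 reversed; 9 ratios were past 1.5-fold there, 1 of them in the opposite direction. The 6404 calls over all genes and the 22 of the pathway list became 4254 and 10 over all kept cells, 3315 and 11 without the Rlbp1-led cluster, and 3909 and 13 in the Lcn2-led cluster alone. A stricter cell filter (1000 genes or more, no more than 5% of UMIs mitochondrial) left 104 to 751 Müller-like cells per library, and calls over all genes were then 11728. Of the 23 calls 19 remained in the same direction, 1 reversed and 2 ratios came newly past 1.5-fold (Ccnd3 with let-7 antagomiR against control, 0.68, and Cdk6 in the triple-labelled library against control, -0.65). Ccnd1 between the triple-labelled library and the double combination went from -0.95 to -0.34.

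The log2 ratio of Cdkn1c between the miR-124-labelled library and control (1.42) reversed to -0.5 with the stricter filter, which kept 30 of 709 Rlbp1-led cells of that library, to -0.17 without the Rlbp1-led cluster and to -0.4 in the Lcn2-led cluster. In the Npvf-led cluster, that of Cdkn1c between the double combination and control (-1.24) was 0.02, from 2 and 1 UMIs. Between the triple-labelled library and the double combination, that of Ccnd1 (-0.95) was 0.26 without the Rlbp1-led cluster and 1.04 in the Npvf-led cluster, and that of Ccnd2 (-1.53) was 0.08 in the latter. The cause was not tested beyond these cell sets.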
